A study of Mus musculus with 4 samples.

Results

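The DNA methyltransferase and TET genes of the mouse were examined at the level of their own DNA methylation. The group comprised 7 of the 28883 genes with a listed region: Dnmt1, Dnmt3a, Dnmt3b, Dnmt3l, Tet1, Tet2 and Tet3. Members were found by gene identifier, and the CpG islands and CpG island shores that shared at least 1 base with a member's span in the GENCODE annotation were added. This gave 55 of the 164078 regions listed in any library, namely 24 entries for 5′ UTR, exon, intron or 3′ UTR, 7 promoters, 11 islands and 13 shores. All 55 had a methylation level in all 4 libraries, as did 151644 regions of the whole series.

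The study sequenced bisulfite-treated DNA of C3H10T1/2 cells, a line derived from C3H mouse embryos that serves as a model of mesenchymal stem cells (MSCs). Cells were transfected for 48 h with a control siRNA (NC) or with a siRNA against DNMT1 (siDNMT1), and were then left uninduced or kept for 3 days in osteoblast (OB) medium with ascorbic acid, β-glycerophosphate and dexamethasone. This gave the 4 libraries NC uninduced, siDNMT1 uninduced, NC OB and siDNMT1 OB, with 1 library per condition, so no difference had a replicate check and no test was made. The question was which regions lose or gain methylation when DNMT1 is depleted, with and without OB induction. Which DNMT1 siRNA was in the sequenced cells is not given in the sources used here. RNA was not analysed here, so neither the depletion of DNMT1 nor the identity of the cells was checked in these libraries, and all values are from 1 cell line. The libraries listed between 155398 and 159705 regions, the fewest in siDNMT1 OB, and the read depth behind a level is unknown.

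DNA methylation in mammals sits mainly on the cytosine of CpG dinucleotides. DNMT1 copies the pattern onto the new strand after replication, DNMT3A and DNMT3B place methyl groups on unmethylated DNA, and DNMT3L is a cofactor of these that has no catalytic activity of its own. TET1, TET2 and TET3 oxidise methylcytosine, which starts its removal. CpG islands at gene starts are usually unmethylated, whereas CpGs in the bodies of transcribed genes are usually methylated.

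Reference sequence of 6 island stretches is printed here because these islands span the whole range of levels found in the 7 genes, from nearly unmethylated at gene starts to nearly fully methylated inside Tet3. The sequences are from GRCm38 (mm10), each on the strand of its gene and from 5′ to 3′, and capitals mark every CpG dinucleotide of the reference. Which of them were covered by reads is not given in the sources used here.
Dnmt1 start island, first coding exon and intron (chr9:20952624-20952787, minus strand): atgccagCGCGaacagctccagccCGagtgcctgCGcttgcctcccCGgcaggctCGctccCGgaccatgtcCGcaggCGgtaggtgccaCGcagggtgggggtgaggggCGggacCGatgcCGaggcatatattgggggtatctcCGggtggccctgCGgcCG
Tet2 start island, inside the gene span and upstream of the coding transcripts (chr3:133544391-133544690, minus strand): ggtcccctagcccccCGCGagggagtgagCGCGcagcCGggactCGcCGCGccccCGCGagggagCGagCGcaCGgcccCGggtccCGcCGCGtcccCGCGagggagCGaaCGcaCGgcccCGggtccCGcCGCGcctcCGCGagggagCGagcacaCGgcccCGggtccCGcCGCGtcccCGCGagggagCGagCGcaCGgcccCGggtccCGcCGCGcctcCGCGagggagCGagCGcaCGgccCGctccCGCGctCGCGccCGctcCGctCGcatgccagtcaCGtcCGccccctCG
Dnmt3l island at the start of Aire (chr10:78043412-78043523, plus strand): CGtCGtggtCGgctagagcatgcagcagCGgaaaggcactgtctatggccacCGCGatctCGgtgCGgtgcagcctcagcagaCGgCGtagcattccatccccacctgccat
Dnmt3a internal island, intron (chr12:3891335-3891634, plus strand): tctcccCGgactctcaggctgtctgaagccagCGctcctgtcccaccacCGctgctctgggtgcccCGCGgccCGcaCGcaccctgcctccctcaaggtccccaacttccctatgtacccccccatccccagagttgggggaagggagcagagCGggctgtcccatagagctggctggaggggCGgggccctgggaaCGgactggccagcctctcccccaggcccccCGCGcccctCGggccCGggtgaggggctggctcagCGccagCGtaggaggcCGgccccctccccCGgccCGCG
Tet3 internal coding island (chr6:83404466-83404724, minus strand): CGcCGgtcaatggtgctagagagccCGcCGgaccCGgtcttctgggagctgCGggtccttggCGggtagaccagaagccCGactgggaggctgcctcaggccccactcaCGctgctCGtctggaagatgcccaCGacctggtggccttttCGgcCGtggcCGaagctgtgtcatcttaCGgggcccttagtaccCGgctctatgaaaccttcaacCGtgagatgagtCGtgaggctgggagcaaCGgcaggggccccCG
Tet3 last coding island (chr6:83368045-83368344, minus strand): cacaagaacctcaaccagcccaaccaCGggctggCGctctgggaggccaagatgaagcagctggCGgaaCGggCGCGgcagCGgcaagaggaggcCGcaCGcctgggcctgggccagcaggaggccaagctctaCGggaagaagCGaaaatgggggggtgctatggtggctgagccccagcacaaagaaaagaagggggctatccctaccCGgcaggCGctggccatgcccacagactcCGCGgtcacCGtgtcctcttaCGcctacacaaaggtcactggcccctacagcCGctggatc
The Tet2 stretch held 59 CpGs in 300 bases, while the Dnmt3a stretch of the same length held 20 and the last Tet3 stretch held 18.

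The methylation level is the fraction of methylated cytosine among CpG cytosines of a region, from 0 to 1, as the authors computed it. A first look at the medians over members showed low 5′ UTRs, intermediate introns and higher exons and 3′ UTRs. Single members departed from this order or lacked some of the entries. The Dnmt3b exon (0.0835 in NC uninduced) was below its intron (0.196). The Tet3 5′ UTR (0.437) was level with its intron (0.438), and the Tet1 3′ UTR (0.278) was below its exon (0.682). In NC uninduced cells the median over members was 0.0564 for 6 5′ UTRs, 0.581 for 7 exons, 0.436 for 7 introns and 0.696 for 4 3′ UTRs. The corresponding medians over all genes were 0.0286, 0.361, 0.424 and 0.675. The median over members' exons stood above that of all genes and the median over their introns was close to it, while the Dnmt3b exon and the introns of Dnmt3b and Tet1 were well below.

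**Figure D1:**
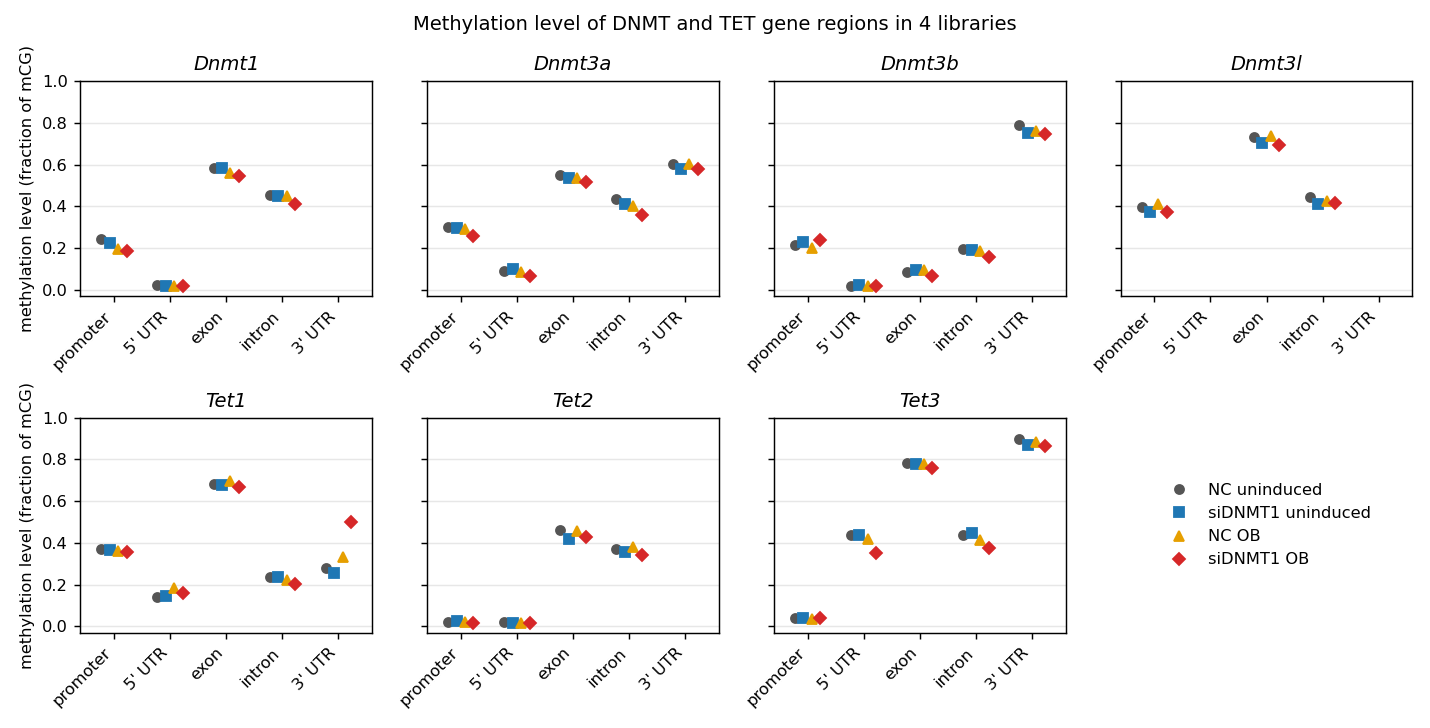
Methylation level (fraction of mCG, vertical axis) of the promoter, 5′ UTR, exon, intron and 3′ UTR entry of each of the 7 genes, with 1 point per library. The 4 libraries lie close together within an entry, and the Tet1 3′ UTR has the widest range, from 0.256 to 0.50.

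Dnmt1, the maintenance methyltransferase and the target of the siRNA, lies on chromosome 9 (chr9:20907209-20959888, minus strand). Its 5′ UTR had a level of 0.0224 in NC uninduced, 0.0167 in siDNMT1 uninduced, 0.0174 in NC OB and 0.0199 in siDNMT1 OB. The exon level was 0.581, 0.581, 0.559 and 0.543 in the same order. The intron level was 0.453, 0.449, 0.450 and 0.411. The start of the gene was nearly unmethylated in every library, and in exons and introns siDNMT1 OB was the lowest library. The promoter entry of Dnmt1 was higher than its 5′ UTR in every library, at 0.244, 0.226, 0.197 and 0.187. In GENCODE the centre of the island at the other starts lies 7.10 kb downstream of the outermost start of Dnmt1, and the 2 kb before that start held 32 CpGs, of which 0 lay in an island. Which transcript start the authors used for a promoter is not given in the sources used here.

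Dnmt3a, a de novo methyltransferase, lies on chromosome 12 (chr12:3806007-3914443, plus strand). Its intron level was 0.436 in NC uninduced, 0.411 in siDNMT1 uninduced, 0.402 in NC OB and 0.358 in siDNMT1 OB, so that siDNMT1 was lower than NC with and without induction and OB was lower than uninduced with each siRNA. The difference between siDNMT1 and NC was -0.0246 in uninduced cells and -0.0445 in OB. Among the 5279 intron entries with a mean level within 0.1 of this one, 28.7% differed by at least as much in uninduced cells and 17.8% in OB. The exon level was 0.552, 0.534, 0.536 and 0.518, and the 3′ UTR level was 0.602, 0.577, 0.603 and 0.578. Both were lower in siDNMT1 than in NC with and without induction. The 5′ UTR was at 0.0904, 0.101, 0.0849 and 0.0658, and the promoter was at 0.30, 0.294, 0.291 and 0.256, with siDNMT1 OB the lowest library in both.

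Dnmt3b, the other de novo methyltransferase, lies on chromosome 2 (chr2:153649450-153687730, plus strand) and had the lowest exons of the 7 genes. Its exon level was 0.0835 in NC uninduced, 0.0929 in siDNMT1 uninduced, 0.0938 in NC OB and 0.0642 in siDNMT1 OB. The level was lower in siDNMT1 OB than in the other 3 libraries, which lay within 0.0102 of each other. The OB difference was -0.0296, and 6.99% of the 7440 exon entries with a mean level within 0.1 of it differed by at least as much. That band reaches the bottom of the scale, where levels can hardly become lower. The lower quartile of all exons in NC uninduced was 0.0593. The intron level was 0.196, 0.189, 0.184 and 0.157, again with siDNMT1 OB lowest. The 3′ UTR, by contrast, was methylated, with levels of 0.790, 0.753, 0.760 and 0.746. The promoter was the entry of Dnmt3b that was highest in siDNMT1 OB, at 0.215, 0.229, 0.20 and 0.240.

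Dnmt3l, the cofactor without catalytic activity, lies on chromosome 10 (chr10:78041947-78063622, plus strand) and had no 5′ or 3′ UTR entry. Its exon level was 0.732 in NC uninduced, 0.702 in siDNMT1 uninduced, 0.737 in NC OB and 0.696 in siDNMT1 OB. Both siDNMT1 libraries lay below both NC libraries, by 0.0302 (uninduced) and 0.0410 (OB). The intron level was 0.443, 0.410, 0.423 and 0.418, with differences of -0.0331 without and -0.00559 with induction. The promoter level was 0.396, 0.372, 0.412 and 0.372. Dnmt3l shares 1664 bases with Aire on the opposite strand, so that this stretch belongs to both genes.

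Tet1 lies on chromosome 10 (chr10:62804570-62908996, minus strand) and had the widest spread of any member over the 4 libraries, in its 3′ UTR. The 3′ UTR level was 0.278 in NC uninduced, 0.256 in siDNMT1 uninduced, 0.333 in NC OB and 0.50 in siDNMT1 OB. It was higher in OB than in uninduced cells with each siRNA, and the OB difference between siDNMT1 and NC, 0.167, was opposite in sign to the uninduced difference of -0.0214. Of the 483 3′ UTR entries with a mean level within 0.1 of it, 2.48% differed by at least 0.167 in OB. The annotated 3′ UTR holds 72 CpGs in 7965 bases, and how many of them were covered in a library is unknown. The NC OB and siDNMT1 OB levels, 0.333 and 0.50, are ratios of small whole numbers, as a few reads would give. The higher level in siDNMT1 OB may therefore rest on few reads, which was not tested. The other Tet1 entries did not share this direction in OB, since the exon was at 0.682, 0.677, 0.695 and 0.668, the intron at 0.238, 0.236, 0.224 and 0.201 and the 5′ UTR at 0.142, 0.145, 0.183 and 0.158. In these 3 entries siDNMT1 OB was lower than NC OB. The annotated 5′ UTR of Tet1 holds 3 CpGs in 294 bases, and whether the authors' entry spans the same bases is unknown.

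Tet2 lies on chromosome 3 (chr3:133463679-133545139, minus strand) and had low levels at its start, with a 5′ UTR at 0.0218, 0.0177, 0.0184 and 0.0156 and a promoter at 0.0196, 0.0270, 0.0198 and 0.0145. Its exon level was 0.464 in NC uninduced, 0.418 in siDNMT1 uninduced, 0.459 in NC OB and 0.430 in siDNMT1 OB. Both siDNMT1 libraries lay below both NC libraries, and the uninduced difference of -0.0463 was the largest decrease among the 24 UTR, exon and intron entries without induction. Of the 3909 exon entries with a mean level within 0.1 of it, 14.1% differed by at least as much. The intron level was 0.372, 0.359, 0.383 and 0.342, with a difference of -0.0135 in uninduced cells and -0.0403 in OB.

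Tet3 lies on chromosome 6 (chr6:83362373-83459084, minus strand) and had the highest exon and 3′ UTR levels of the 7 genes. The exon was at 0.783 in NC uninduced, 0.777 in siDNMT1 uninduced, 0.777 in NC OB and 0.759 in siDNMT1 OB, and the 3′ UTR was at 0.896, 0.870, 0.884 and 0.864. The 5′ UTR of Tet3 was also the most methylated 5′ UTR of the group, at 0.437, 0.440, 0.417 and 0.350. Its OB difference of -0.0672 was the largest decrease among the 24 entries, while the uninduced difference was 0.00314. The intron level followed the same course, at 0.438, 0.445, 0.412 and 0.375. Among entries of the same kind with a mean level within 0.1, 14.9% of 1064 5′ UTRs and 24.5% of 5396 introns differed in OB by at least as much. The promoter of Tet3 was low in every library, between 0.0344 and 0.0422.

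Exons were more methylated than introns in 6 of the 7 genes in all 4 libraries, Dnmt3b being the exception. In NC uninduced cells the exon level exceeded the intron level by 0.444 in Tet1, 0.345 in Tet3 and 0.289 in Dnmt3l, and by 0.128 in Dnmt1, 0.116 in Dnmt3a and 0.0920 in Tet2. Of the 15709 genes with both entries, 45.6% had the exon above the intron in that library, and the Tet1 difference stood at percentile 96.1 of them. In Dnmt3b the exon minus intron difference was -0.112, at percentile 30.5. By the annotation, 35.9% of the exonic CpGs of Dnmt3b, 55 of 153, lay in its start island, the highest share of the 7 genes. Over the 4 libraries the Tet1 difference ranged from 0.441 to 0.470 and the Dnmt3b difference from -0.112 to -0.0901.

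**Figure D2:**
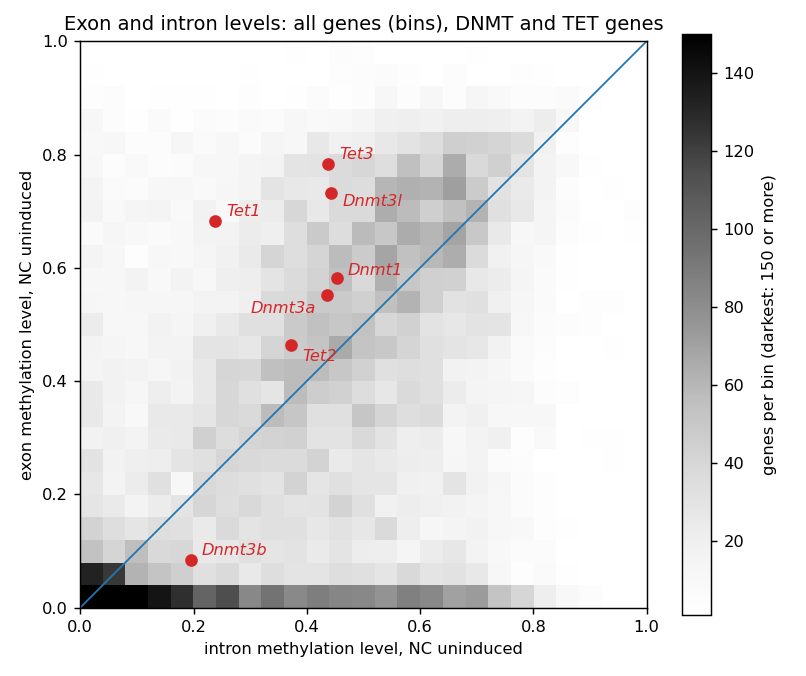
Exon level (vertical axis) against intron level (horizontal axis) in NC uninduced cells, both as a fraction of mCG. Grey squares count the 15709 genes with both entries, the line marks equal levels and red points are the 7 genes, of which Dnmt3b alone lies below the line.

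Levels were slightly lower in siDNMT1 than in NC in most entries of the DNMT and TET genes, and in more of them in OB than in uninduced cells. In uninduced cells 18 of the 24 UTR, exon and intron entries were lower in siDNMT1 than in NC, with a median difference of -0.00580. Over all 56003 such entries 56.8% were lower and the median was -0.00200. In OB, 22 of the 24 were lower, with a median difference of -0.0239, against 67.8% lower and a median of -0.00737 over all entries. The exceptions in OB were the 5′ UTR of Dnmt1, which was higher by 0.00248, and the 3′ UTR of Tet1. After each library was centred on the median level of the entry's kind, 16 of the 24 were lower in uninduced cells, where 47.4% of all entries were, and 19 in OB, where 44.6% were. The centred median in OB was -0.00823, against 0.00241 over all entries. The UTR, exon and intron entries of a gene can share CpGs, so the 24 entries are not separate observations. Islands and shores overlap the same genes and can share CpGs with these entries.

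Differences of at least 0.1 were rare in the members. In uninduced cells 0 of the 24 entries differed by that much, where 1.56% of all entries did, and in OB the count was 1, the Tet1 3′ UTR, where 2.15% of all entries did. The share of members that differed by at least 0.1 was thus near the share over all entries. The siDNMT1 OB library was the lowest of the 4 in 18 of the 24 entries, against 51.1% of all entries. The difference between siDNMT1 and NC was lower in OB than in uninduced cells in 17 of the 24, against 62.0% of all entries.

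**Figure D3:**
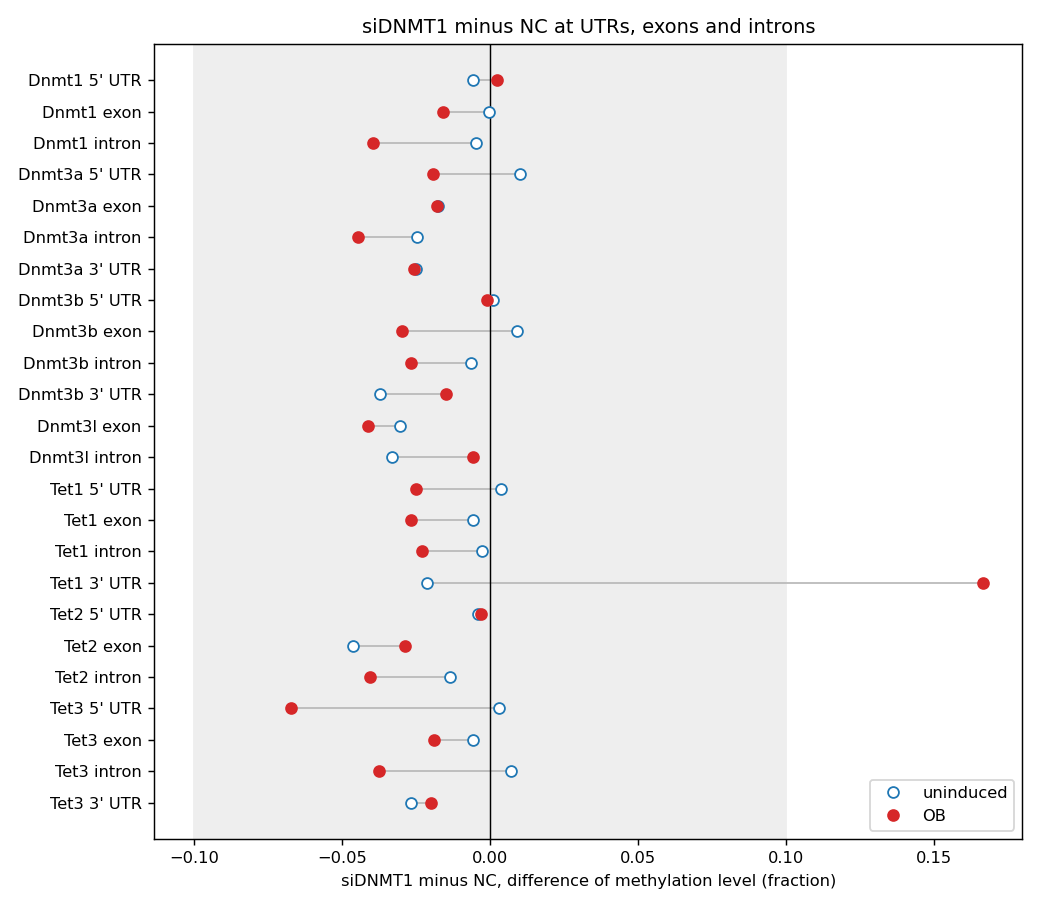
Difference in methylation level between siDNMT1 and NC (horizontal axis, fraction) for the 24 UTR, exon and intron entries, with open points for uninduced cells and filled points for OB. The grey area marks differences smaller than 0.1, and the Tet1 3′ UTR in OB, at 0.167, is the single point outside it.

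The decrease in OB was found in all 7 introns and all 7 exons. The introns had a median OB difference of -0.0376 and ranged from -0.0445 in Dnmt3a to -0.00559 in Dnmt3l, while the median over all 19757 introns was -0.0131 and 74.4% of them were lower. The exons had a median OB difference of -0.0266 and ranged from -0.0410 in Dnmt3l to -0.0157 in Dnmt1, while the median over all 20401 exons was -0.00690 and 66.9% of them were lower. In uninduced cells the medians were -0.00650 for members' introns and -0.00582 for members' exons. Since entries near 0 can hardly become lower, the 17 entries with a mean level of at least 0.2 were also set beside all 34130 entries of that kind, a choice made after seeing the data. Of these, 15 were lower in uninduced cells and 16 in OB, against 63.4% and 76.6% of all such entries. The median OB difference was then -0.0255 in members and -0.0178 over all, which was closer than over all levels. In uninduced cells the medians were -0.0174 in members and -0.00646 over all. These were wider apart than over all levels, where they were -0.00580 and -0.00200.

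**Figure D4:**
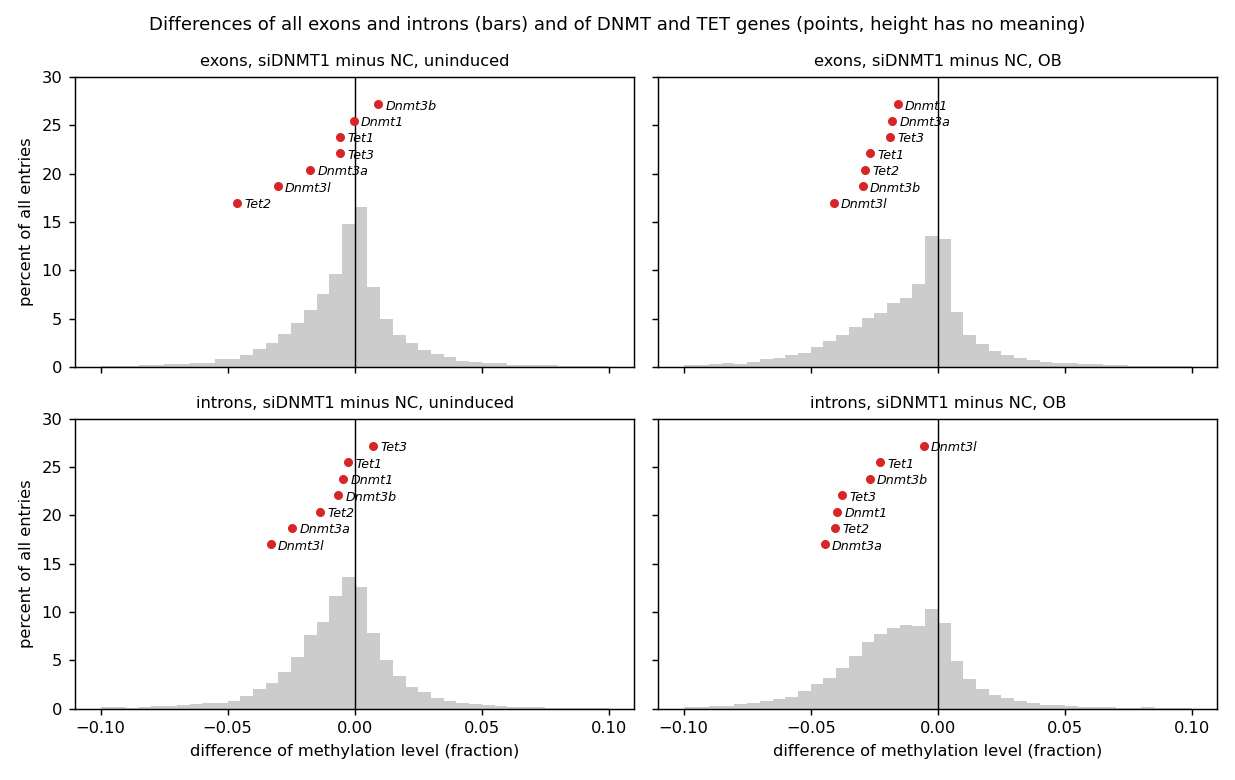
Differences in methylation level between siDNMT1 and NC (horizontal axis, fraction) for exons (upper row) and introns (lower row), in uninduced cells (left) and OB (right). Bars give the percent of all entries in bins of the difference and red points the 7 genes, all of which lie below 0 in OB within the main body of the bars.

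OB induction alone was accompanied by small differences as well. In NC cells 16 of the 24 entries were lower in OB than in uninduced cells, with a median difference of -0.00539, where 61.1% of all entries were lower, and 0 differed by at least 0.1, where 2.12% of all entries did. In siDNMT1 cells 18 of the 24 were lower, with a median of -0.0123, where 71.7% of all entries were lower, and 1 differed by at least 0.1, where 3.39% of all entries did. That entry was again the 3′ UTR of Tet1, which went from 0.256 to 0.50, a level that may rest on few reads. After the same centring 13 of the 24 were lower in OB under NC, where 40.9% of all entries were, and 9 under siDNMT1, where 39.6% were. The centred median under siDNMT1 changed sign to 0.00454, against 0.00520 over all entries. The Tet3 intron, with a difference of -0.0706, and the Tet3 5′ UTR, with -0.0902, were the lowest in that comparison. These comparisons share libraries with those between siDNMT1 and NC, so the sets of differences are not independent.

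The CpG islands fell into low, intermediate and high ones. The islands at the starts of Dnmt1 (chr9:20952561-20953008), Dnmt3a (chr12:3806274-3808370), Dnmt3b (chr2:153649288-153649930) and Tet2 (chr3:133544132-133545117) had levels of 0.0145, 0.0326, 0.0285 and 0.0207 in NC uninduced cells. The median over all 9840 islands with a gene start was 0.0212, and 75.1% of them were at 0.1 or below. Neither of the islands at Tet3 starts exceeded this limit in any library. The one at chr6:83455857-83457263 lay between 0.0411 and 0.0494, and the one at chr6:83441467-83441729 was at 0.0284, 0.0647, 0.0344 and 0.0358. In the latter siDNMT1 uninduced was the highest library, and 0.837% of islands with a mean level within 0.1 of it differed between siDNMT1 and NC in uninduced cells by at least as much. That band also reaches the bottom of the scale, and the median over all islands in NC uninduced was 0.0323.

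The Tet1 island (chr10:62886789-62887349), intronic in the coding transcripts, was at 0.10, 0.0980, 0.0992 and 0.0866, close to that limit. The islands of intermediate level were those of Dnmt3l and the inner part of Dnmt3a. The Dnmt3l island (chr10:78043412-78043683) lies in an intron of Dnmt3l and holds the start of Aire on the other strand. Its level of 0.443, 0.434, 0.410 and 0.457 placed it at percentile 93.4 of islands with a gene start in NC uninduced cells. Unlike most member regions it was highest in siDNMT1 OB. The Dnmt3a internal island (chr12:3891227-3891634) ends just before the starts of the short Dnmt3a transcripts (Dnmt3a-205 at 3891728 and Dnmt3a-203 at 3891744). It was at 0.463 in NC uninduced, 0.425 in siDNMT1 uninduced, 0.492 in NC OB and 0.402 in siDNMT1 OB. Both siDNMT1 libraries were below both NC libraries, and 3.65% of the islands with a mean level within 0.1 of it differed in OB by at least as much as its -0.0899. The number of reads behind these levels is unknown.

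The highest islands lay in the coding sequence of Tet3. Their far edges were 37209 and 73673 bases from the nearest start of a basic coding transcript. The island at chr6:83404466-83404724, which is wholly coding, was at 0.881, 0.857, 0.877 and 0.865. The island in the last coding exon (chr6:83368002-83368474) was at 0.908, 0.895, 0.902 and 0.886, at percentile 96.4 of the 2995 islands inside genes in NC uninduced cells, whose median was 0.403. Both were less dense in CpGs than the start islands, with 7.72 and 6.77 CpGs per 100 bases, against 12.0 in the Tet2 start island and 14.5 in that of Dnmt3b. The Dnmt3a internal island had 7.11 CpGs per 100 bases.

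Shores, the stretches of about 2 kb beside an island, differed widely between genes. The 13 shores ranged from 0.0270 to 0.898 in NC uninduced cells. The shore over the 3′ UTR of Tet3 (chr6:83366001-83368000), which holds 51 CpGs, was at 0.898 in NC uninduced, 0.868 in siDNMT1 uninduced, 0.896 in NC OB and 0.787 in siDNMT1 OB. This OB difference, -0.108, was the one difference of at least 0.1 between siDNMT1 and NC in the 24 islands and shores. Of the shores with a mean level within 0.1 of it, 1.22% differed by at least as much. The number of reads behind these levels is unknown, so the lower level in siDNMT1 OB may rest on few reads, which was not tested. The annotated 3′ UTR of Tet3 covers this shore and more, and whether the authors' entry spans the same bases is unknown. That 3′ UTR entry differed in OB by -0.0199, and the island next to the shore by -0.0160. The shore of the Dnmt3a start island was at 0.624, 0.632, 0.557 and 0.545, with both OB libraries below both uninduced ones.

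**Figure D5:**
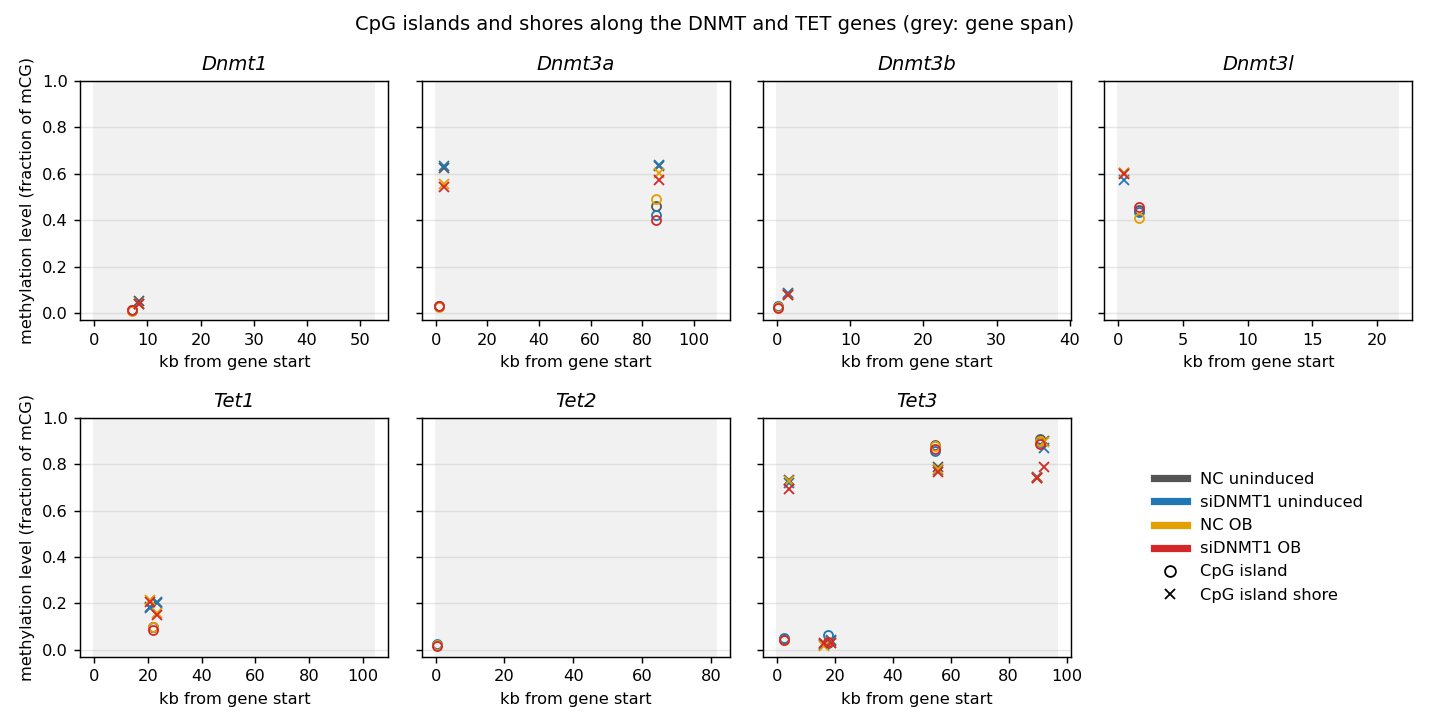
Methylation level (vertical axis, fraction of mCG) of the islands (circles) and shores (crosses) of each gene against the distance of their centre from the gene start in kb (horizontal axis), with 1 colour per library. Start islands at the bottom of the panels, such as that of Tet2 at 0.0207 in NC uninduced cells, contrast with the Tet3 islands at 0.881 and 0.908 far from the gene start.

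Counted over the islands and shores, 15 of 24 were lower in siDNMT1 than in NC in uninduced cells, where 51.5% of all islands and shores were lower, and 0 differed by at least 0.1, where 1.25% did. In OB, 18 of 24 were lower, where 62.9% of all were, and 1 differed by at least 0.1, where 1.71% did. In NC cells 21 of 24 were lower in OB than in uninduced cells, where 67.7% of all were, and 0 differed by at least 0.1, where 2.08% did. In siDNMT1 cells 17 of 24 were lower in OB, where 77.0% of all were, and 0 differed by at least 0.1, where 2.99% did. The siDNMT1 OB library was the lowest in 14 of 24, against 50.3% of all. Of the 13 shores 12 were lower in siDNMT1 OB than in NC OB, against 66.7% of all shores, and of the 11 islands 6 were, against 58.5% of all islands. The median OB difference of the members' shores, -0.00786, was no larger in size than that of all shores, -0.00820. For islands the medians were -0.00447 in members and -0.00111 over all.

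A list of 30 other genes of DNA methylation, which write, remove or read the mark, was set beside the 7 genes. Of these 28 had UTR, exon or intron entries, 87 in all. In uninduced cells 41 of the 87 were lower in siDNMT1 than in NC, where 56.8% of all entries were, and 1 differed by at least 0.1, where 1.56% did. This was the exon of Usp7, which encodes a deubiquitinase that binds DNMT1. It was at 0.388 in NC uninduced, 0.219 in siDNMT1 uninduced, 0.374 in NC OB and 0.363 in siDNMT1 OB, so that siDNMT1 uninduced stood below the other 3 libraries. The other Usp7 entries differed less between siDNMT1 and NC in uninduced cells. The difference was -0.0208 in the intron, -0.0330 in the 3′ UTR and 0.00630 in the 5′ UTR. In OB 53 of the 87 entries were lower in siDNMT1, where 67.8% of all entries were, and 0 differed by at least 0.1, where 2.15% did. By role, 12 of 23 entries of writing genes, 20 of 36 of removal genes and 21 of 28 of readers were lower in OB. Many entries of the list, such as all those of Gadd45a, Gadd45g and Hells, were near 0, where little decrease is possible. A limit to mean levels of at least 0.2 was not applied to this list.

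Genes with the most similar levels were sought for the 4 members that had all 5 kinds of entry, by the root mean square difference over 20 levels among 2808 other genes. Dnmt3a was nearest to Celf6, at a distance of 0.0352, where the median distance was 0.210. Dnmt3b was nearest to Csnk2a2, at 0.0455 (median 0.253), and Tet3 to Arid3a, at 0.0620 (median 0.311). Tet1 had no neighbour as close, its nearest being B4galnt4 at 0.0789 (median 0.298). Dnmt3b and Csnk2a2 shared low exons (0.0835 and 0.0590) and a methylated 3′ UTR (0.790 and 0.753) in NC uninduced cells.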

How the data were processed

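DNA of 4 C3H10T1/2 cultures, 1 per condition, was sonicated, treated with bisulfite and sequenced; the labels name the assay reduced representation bisulfite sequencing but describe no restriction enzyme. The submitters' processing notes name CASAVA, Trimmomatic 0.36, Bismark 0.16.3 and mm10. The authors deposited, per library, the methylation level of each region as a fraction from 0 to 1, with promoters taken as 2 kb upstream of genes. A minimum coverage, the weighting of CpGs and the transcript set are not given in the sources used here, and without counts the depth of each level and its precision are unknown. All 14354 listed CpG islands began and ended with CG on GRCm38, so GENCODE and sequence of that build were used.

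Levels of the 4 libraries were joined by region, differences were taken as fractions, and the threshold of 0.1 and the band of 0.1 in mean level served as yardsticks. Replication was absent, so no test was run. Code was tested on simulated data. The members, lists and yardsticks were chosen with earlier results of these data known. Named genes were all members, other methylation genes with an entry that differed by at least 0.1 between siDNMT1 and NC, and for each member with all 5 kinds of entry its nearest gene. From the list of other methylation genes 1 gene is not reported here and is left out of its counts. Alternatives were thresholds of 0.05 and 0.2, centring on class medians, log2 odds with an offset of 0.01, promoters added, entries listed in the compared libraries alone, and other overlap rules for islands. Python 3.11.15, pandas 2.3.3, numpy 2.4.6 and matplotlib 3.10.9 were used.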

Additional observations from a re-analysis of the deposited data

Results flagged for a closer look

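In 20 of the 55 regions of the 7 genes the difference between siDNMT1 and NC had opposite signs in uninduced cells and in OB, against 43.3% of all 106689 regions of these kinds. With 1 library per condition these differences between conditions were not tested, and most of the values are smaller than 0.05. The value given is the OB difference minus the uninduced difference, as a fraction. Among gene entries it was 0.188 for the Tet1 3′ UTR, -0.0703 for the Tet3 5′ UTR, -0.0449 for the Tet3 intron, -0.0389 for the Dnmt3b exon, -0.0292 for the Dnmt3a 5′ UTR and -0.0286 for the Tet1 5′ UTR. It was -0.0127 for the Tet2 promoter, 0.00825 for the Dnmt1 5′ UTR and -0.00177 for the Dnmt3b 5′ UTR. Among islands it was 0.0556 for the Dnmt3l island, -0.0100 for the Tet2 start island, 0.00747 for the Dnmt1 start island, -0.00660 for the Dnmt3b start island and 0.00339 for the Dnmt3a start island. Among shores it was -0.0335 for the shore behind the Dnmt3a internal island and -0.0206 for that of the Dnmt3a start island. The Tet3 shores beside the island at chr6:83441467-83441729 had 0.0158 and -0.00451, the Tet1 shore at chr10:62884788-62886787 had -0.0139 and the Dnmt3b shore had -0.00624.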

How the results depend on the processing

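The number of members' entries lower in siDNMT1 than in NC was 16 to 22 in uninduced cells and 19 to 27 in OB under the alternatives, where 22 and 27 include promoters. With a threshold of 0.05, 2 entries differed between siDNMT1 and NC in OB, 1 between OB and uninduced cells under NC and 4 under siDNMT1, and 4 entries of the other methylation genes differed between siDNMT1 and NC in OB. With a threshold of 0.2, 0 member entries differed between siDNMT1 and NC in OB. Without the Tet1 3′ UTR, left out after seeing the data, 0 differed by 0.1 in OB between siDNMT1 and NC and 0 between OB and uninduced cells under siDNMT1. Centring each library on the median of the region class gave medians of -0.00823 for siDNMT1 against NC in OB, -0.000989 for OB against uninduced cells under NC and 0.00454 under siDNMT1. The latter reversed the sign of the median, with 9 of 24 entries lower; the class medians themselves are lower in siDNMT1 OB, which the centring removes. For siDNMT1 against NC, 4 entries changed sign on centring in uninduced cells, with 16 of 24 then lower, and 3 in OB (the 3′ UTRs of Dnmt3b and Tet3 and the Dnmt3l intron), with 19 then lower. For OB against uninduced cells under NC, 13 rather than 16 were then lower. On the log2 odds scale, which has other units, the medians were -0.0701 and -0.181 for siDNMT1 against NC in uninduced cells and OB, and -0.0899 and -0.0965 for OB against uninduced cells under NC and siDNMT1. The other alternatives kept the direction of these counts and medians. No paired analysis was possible because each condition has 1 library and the labels give no replicate numbers. With 1 library per condition, siRNA and induction cannot be told apart from variation between cultures, and without coverage a level that rests on few reads cannot be told apart from one that rests on many.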
